A study of Caenorhabditis elegans with 83 samples.

Results

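Broad SMC-3 domains were the peaks of 2000 bp or more in the combined SMC-3 ChIP-seq list of strain CA1200 after 1 h of auxin. Of 6290 control SMC-3 peaks, 304 met this width, and the other 5986 were narrower. The 304 domains made up 4.83% of the peaks and 21.7% of the bases in peaks, or 1.15 of 5.28 Mb. The samples were whole Caenorhabditis elegans labelled L3 (the protocol describes the synchronized worms as L2/L3), grown 24 h at 22 °C from starved L1 larvae, so each value averages over all tissues. The domains, chosen in the control, were then followed through 20 other peak lists: SMC-3 and PQN-85 after 1 h of auxin in strain JK05 (SMC-3 depletion) and strain JK06 (WAPL-1 depletion), SMC-3, PQN-85 and H4K20me1 in strain HW04 with 1 h of auxin and without it, and PQN-85 in CA1200. RNA-seq followed 4 h of auxin in JK05, JK06 and CA1200, with 2 libraries per strain. The labels give 1 mM auxin for the RNA samples, the HW04 auxin samples and some JK06 ChIP samples, and no concentration for the SMC-3 and PQN-85 samples of CA1200 and JK05. Alleles, degron tags and the protein depleted in HW04 are not given in the sources used here.

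Cohesin is a ring-shaped complex that embraces DNA, and SMC-3 is one of its core subunits. PQN-85, also named SCC-2, is the worm counterpart of the loader NIPBL, which places cohesin on chromatin and drives its movement along DNA. WAPL-1 releases cohesin from chromatin. Auxin-inducible degradation removes a degron-tagged protein within a short time in animals that express the plant F-box protein TIR1, and CA1200 is known as a TIR1 strain without a tagged target.

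The combined lists were made by the authors over replicate libraries, so JK05 and JK06 have no replicate error for a combined list, and differences between strains cannot be told apart from depletion. In HW04 the names of the SMC-3 peaks give auxin where the label of the list gives none, and the reverse, in all 4 lists, so both directions are given for them. Sequencing depth is unknown, because the lists give no read totals. Of the 304 domains, 8 had an authors' fold enrichment under 2, among them the only mitochondrial one.

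Widths had a median of 2892.5 bp and a range of 2002 to 18248 bp. There were 139 domains of 3000 bp or more, 47 of 5000 bp or more and 11 of 10000 bp or more. Width was the choosing measure, and the rule cut a continuous distribution: the narrowest domain measured 2002 bp and the widest peak outside the rule 1990 bp. The 21 domains up to 2100 bp had a median authors' score of 461, where the score is 10 times the −log10 q value, and the 26 outside peaks from 1900 bp had one of 236. The authors' score had a median of 568.5 in the domains and 211 in the narrower peaks. The authors' fold enrichment over input had a median of 3.39 in the domains and 2.39 in the narrower peaks. Both measures come from the peak calls that set the width and are given as description. The upper 10% of the list by score, 630 peaks, held 115 domains and mostly narrower peaks.

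The broadest domain, at chrV:6217376-6235623 (18248 bp, ce10), had W06H8.6 as its gene of largest overlap and reached the endocytic recycling gene rme-1. The second, at chrX:11468647-11486824 (18178 bp), held 15556 bp of lin-14, a transcription factor gene of larval timing whose annotated span is 15768 bp. The third, at chrI:9369687-9387131 (17445 bp), lay entirely inside ppfr-1, which encodes a regulatory subunit of protein phosphatase 4. These 3 differ in kind, since 1 crosses 4 genes and the others lie in or along 1 gene.

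The next was at chrIII:12605734-12620999 (15266 bp), over Y111B2A.12 and epc-1, the worm Enhancer of Polycomb gene. A domain of 14059 bp lay inside anc-1, a giant nesprin gene that anchors nuclei. The domain at chrM:9-13793 covered nearly the whole mitochondrial genome, and chrI:15060304-15071332, near the end of chromosome I, had the same authors' score (182) and fold enrichment (1.502) as it. The right end of chromosome I is known to carry ribosomal RNA gene repeats.

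The other 8 of the 15 broadest domains measured 8886 to 12428 bp. Their genes of largest overlap were egl-27 (a NuRD-type chromatin gene), mdl-1 (a Mad-like helix-loop-helix factor), srh-2, mstr-1, ubq-1 (polyubiquitin), mak-1 and mnk-1 (kinases downstream of MAP kinases) and rho-1 (a small GTPase). The domain named for srh-2 also held all of icl-1, the glyoxylate cycle enzyme, and the one named for mstr-1 reached nars-1, an asparaginyl-tRNA synthetase gene. The highest authors' score, 2038, belonged to chrIII:354056-359981, which crossed no gene and whose nearest gene start was that of gei-4.

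Domains often lay side by side. Neighbouring domains were less than 5000 bp apart in 77 cases, against a median gap of 126406 bp, and 131 domains fell into 54 chains joined in this way. The longest chain held 5 domains in 20.5 kb at mdt-15, a Mediator subunit gene of lipid and stress responses, at chrIII:5826794-5847282. Chains of 4 domains lay at egl-27 (30.1 kb), at F57G12.1 on X (19.7 kb), at gpb-1, the G protein beta subunit gene (20.8 kb), at daf-5, a Sno/Ski gene of dauer signalling (15.03 kb) and at let-526 (18.04 kb). The chain at gpb-1 ran from ctsa-1.2 to the inducible HSP70-type genes F44E5.4 and F44E5.5. A chain of 3 domains ran from F38A6.4 past hif-1, the hypoxia transcription factor gene, to Y44A6D.3 in 18.7 kb. Joining each chain into 1 unit gave 227 units.

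All chromosomes carried domains. There were 57 on III, 55 on I, 52 each on II and V, 48 on X and 39 on IV, besides the mitochondrial one. Broad peaks formed 5.61% of the SMC-3 peaks of chromosome II (exact Clopper-Pearson 95% interval 4.22 to 7.29), 3.95% of those of X (2.92 to 5.20) and 3.92% of those of IV (2.80 to 5.32). The intervals of all 6 chromosomes overlapped, and they cover counting error only. Per Mb spanned by peaks and genes, III had 4.14 domains and IV 2.23. With each chromosome cut into 3 equal parts, the middle parts held 136 of 303 nuclear domains, or 44.9%, and 40.9% of all nuclear SMC-3 peaks.

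Of the 304 domains, 248 overlapped a gene of the RNA tables and 56 overlapped none. Genes covered 54.6% of the bases of domains and 40.5% of the bases of narrower peaks. A gene start lay inside 128 domains (42.1%), and inside 28.5% of narrower peaks. Per kb, gene starts were sparser in domains, at 0.151 against 0.472 in narrower peaks. The summit lay within 500 bp of a gene start in 22.0% of domains and 35.3% of narrower peaks, and over 2000 bp from any start in 54.6% and 37.7%. A single gene enclosed 69 domains whole, or 22.7%, as did 24.7% of narrower peaks. These differences were not tested, and the distance of a summit from a start can grow with the width of the peak.

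PQN-85 was called at most domains in the control. A control PQN-85 peak overlapped 252 of 304 domains, or 82.9% (exact 95% interval 78.2 to 87.0), where the share over all 6290 control SMC-3 peaks was 60.7%. Wide regions are more easily touched by a peak of another list. By bases, PQN-85 peaks covered 52.1% of the domains and 49.7% of the narrower peaks. Among the 811 narrower peaks whose score reached the domain median, 84.96% had a PQN-85 peak and 69.2% of their bases were covered. By bases the domains were close to the narrower peaks as a whole and below the high-scoring ones. Domains scoring below their median stayed in this and later comparisons, so domains and high-scoring narrower peaks are not matched for score.

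Most domains held 1 or 2 PQN-85 peaks. There was 1 PQN-85 peak in 142 domains, 2 in 80, 3 in 23 and 4 or more in the rest, while 52 domains had none. The lin-14 domain held 8 PQN-85 peaks, more than any other. The domains at Y111B2A.12 and egl-27 held 6 each, and those at ppfr-1 and ZK470.2 held 5 each. The broadest domain of all, at W06H8.6, held 3. Domains of 5000 bp or more held 2.32 PQN-85 summits on average, those of 3000 to 5000 bp 1.26 and those under 3000 bp 1.06. Over all domains there were 0.348 PQN-85 summits per kb, against 0.859 per kb of narrower peaks.

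The strongest PQN-85 summit lay in different places in different domains. Of 249 domains with a PQN-85 summit inside, 171 had the strongest one in the central 60% of the width, and 14 had it within 10% of an edge. Along the direction of the gene of largest overlap, 104 of 200 strongest summits lay on the upstream side of the domain's centre. The SMC-3 summit and the strongest PQN-85 summit were at most 250 bp apart in 178 of the 249 domains, or 71.5%, with a median distance of 66 bp. In narrower peaks they were at most 250 bp apart in 96.8%, though narrower peaks leave less room for distance.

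**Figure D1:**
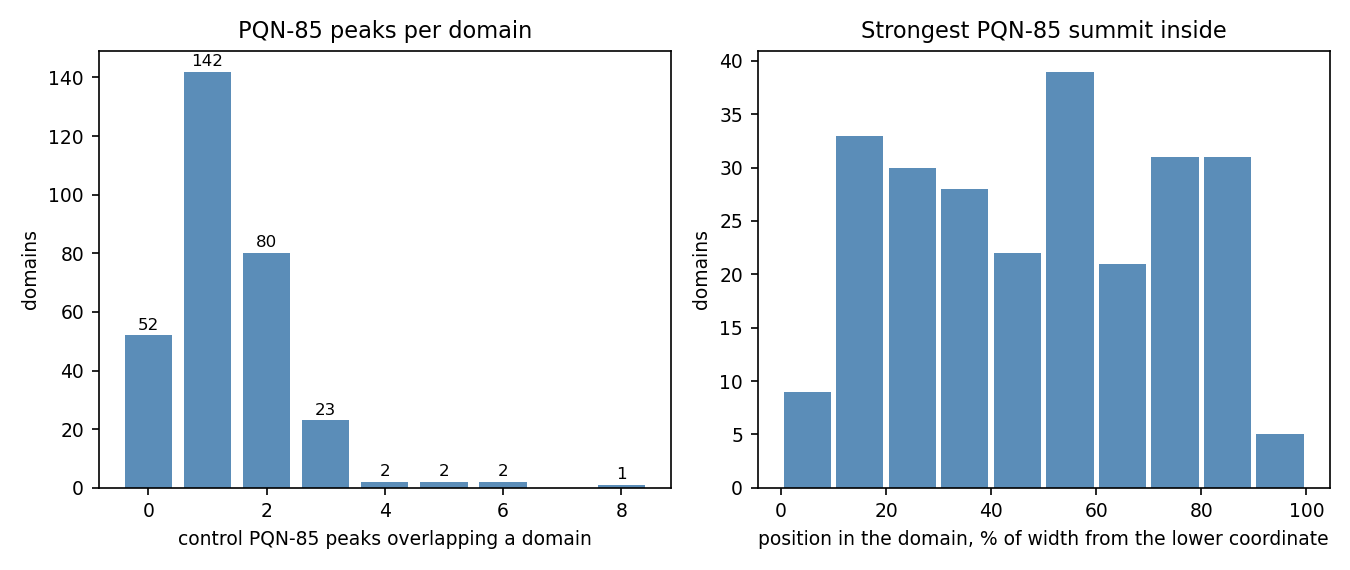
Left, the number of domains (vertical axis) by the number of control PQN-85 peaks that overlap them: 142 domains have 1 peak and 52 have none. Right, the position of the strongest PQN-85 summit as a percentage of the domain's width (bins of 10%), for the 249 domains with a summit inside. The summits are spread across the domain, with few in the outermost bins.

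The highest-scoring domains without a control PQN-85 peak lay at hpk-1 (score 1525), F09A5.3 (1462), tos-1 (1310), Y44A6D.3 (1274) and sma-9 (1031). The gene hpk-1 encodes a homeodomain-interacting protein kinase, and sma-9 a Schnurri-type factor of BMP signalling. A neighbouring domain of sma-9, at chrX:10764822-10769459, had 1 PQN-85 peak. The 52 domains without PQN-85 had a median score of 348.5 and a median width of 2640 bp, and the 252 with it 631.5 and 2964.5 bp.

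The loader's domain sites were called in both depletions too. The JK05 PQN-85 list overlapped 249 domains, or 81.9% (77.1 to 86.1), against 57.8% of all control SMC-3 peaks and 93.7% of high-scoring narrower ones. The JK06 PQN-85 list overlapped 273 domains, or 89.8% (85.8 to 93.0), against 69.0% of all control SMC-3 peaks and 95.7% of high-scoring narrower ones. A PQN-85 list called by the authors on averaged JK06 libraries overlapped 290 domains and 85.1% of all control SMC-3 peaks. By bases, PQN-85 covered 47.7% of the domains in JK05, 49.6% in JK06 and 52.1% in CA1200. The same 231 domains had PQN-85 in all 3 strains, 24 had it in none and 7 in CA1200 alone. Such joint counts are not available over all control SMC-3 peaks. Of the 52 domains without a control PQN-85 peak, 28 had one in JK05 or JK06. On X, PQN-85 overlapped 46 of 48 domains in JK05, 48 in JK06 and 36 in CA1200, and 59.5%, 74.1% and 57.4% of narrower X peaks in the same strains. On the autosomes it overlapped 202 of 255 domains in JK05, 224 in JK06 and 215 in CA1200, and 55.9%, 66.4% and 60.1% of narrower autosomal peaks. These differences were not tested, as the lists pool the replicate libraries of a strain.

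After WAPL-1 depletion nearly every domain still had SMC-3, over part of its length. The JK06 SMC-3 list overlapped 281 of 304 domains, or 92.4% (88.9 to 95.1). It overlapped 68.0% of all control SMC-3 peaks and 99.4% of the 811 high-scoring narrower peaks. It covered 57.5% of domain bases, close to the 56.8% of the bases of narrower peaks, and 79.3% of those of high-scoring narrower peaks. The SMC-3 summit of the domain was covered in 277 cases, or 91.1%. Summits were covered in 67.7% of all control SMC-3 peaks and 99.4% of high-scoring narrower ones. At least 50% of the width was covered in 170 domains, or 55.9%, and in 63.8% of all control SMC-3 peaks. Separate JK06 peaks, 2 or more, met 108 domains, and 148 of all 6290 control peaks. The single JK06 lists of replicates 3 and 4 overlapped 292 and 284 domains (backgrounds 77.2% and 68.1%) and covered 50.2% and 45.6% of their bases. Both single lists overlapped 282 of the domains, a joint count not available over all control SMC-3 peaks.

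**Figure D2:**
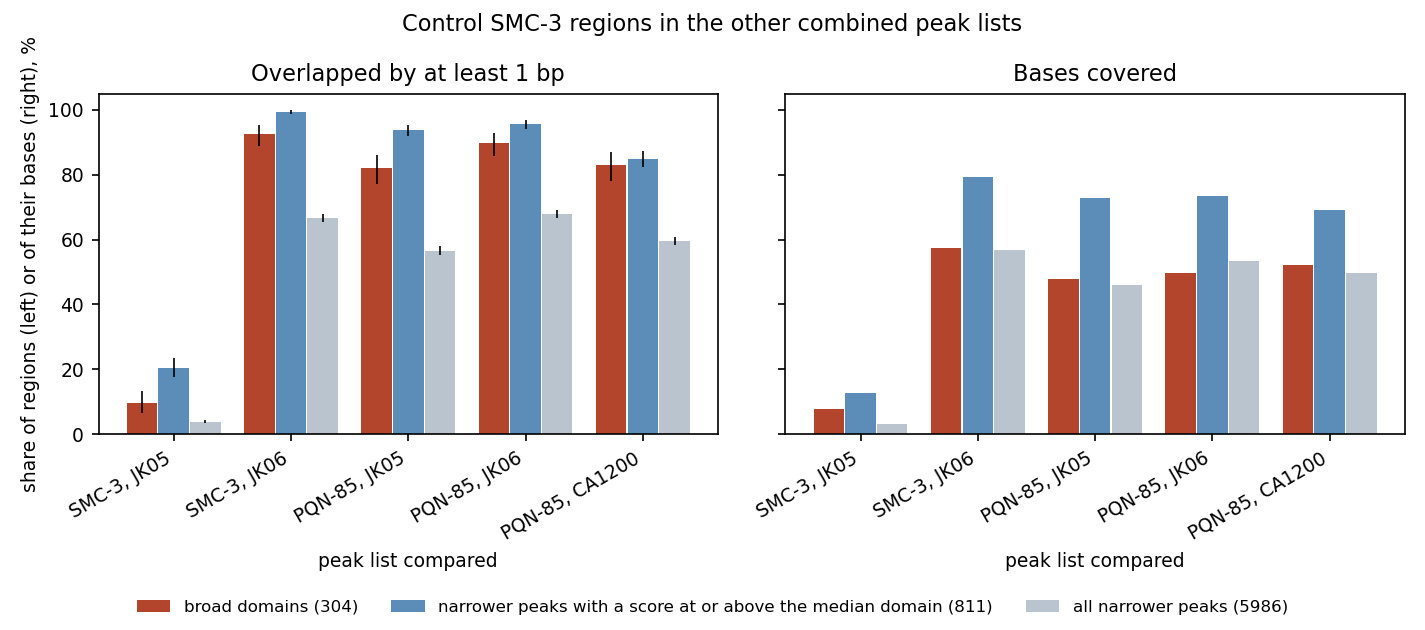
Share of control SMC-3 regions overlapped by at least 1 bp (left) and share of their bases covered (right), in %, for 5 combined lists. Bars stand for the 304 domains, the 811 narrower peaks with a score at or above the domain median, and all 5986 narrower peaks; error bars are exact 95% intervals. SMC-3 in JK05 overlaps 9.54% of the domains, SMC-3 in JK06 92.4%.

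The widest JK06 peak at a domain was narrower than the domain in 253 of 281 cases and wider in 28, with a median width ratio of 0.456. The ratio was 0.308 and 0.293 with the single lists of JK06 replicates 3 and 4. For narrower peaks in the combined list it was 0.965, and 43.7% of them met a wider JK06 peak. Domains were picked for their width in CA1200, so a smaller width elsewhere follows in part from the choice, and the ratio is a description. JK06 had broad peaks of its own: 279 of its 6107 peaks reached 2000 bp, with a median width of 2764 bp. Of these, 121 (43.4%) overlapped a control domain and 202 overlapped any control SMC-3 peak. The W06H8.6 domain was 96.0% covered in JK06, the Y111B2A.12 domain 75.4%, the lin-14 domain 56.2% and the ppfr-1 domain 54.7%. The egl-27 domain of 12428 bp, which held 6 PQN-85 peaks, was 4.43% covered.

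The 23 domains with no peak in the combined JK06 SMC-3 list were all autosomal, while all 48 X domains had one. Among narrower peaks the JK06 list overlapped 71.8% on X and 65.5% on the autosomes. The 23 domains had a median score of 241 and a median width of 2724 bp. The single JK06 lists overlapped 13 of the 23. The 5 with the highest scores lay at T28B11.1 (665), Y24D9A.7 (660), trip-4 (633), a gene-free stretch on V nearest to bcl-11 (545) and pqn-41 (499), a gene for a glutamine-rich protein. The only chain of 3 or more domains with no peak in the combined JK06 list was at kin-1, the catalytic subunit of protein kinase A. Its 3 domains spanned 8.02 kb, and the fourth kin-1 domain, at chrI:14929940-14933232, had none either. At daf-16, the FOXO transcription factor of insulin signalling, the domain at chrI:10775537-10778096 was 64.4% covered in JK06, and the one at chrI:10751183-10753494 was not overlapped. At mdt-15, the JK06 list overlapped 3 of the 5 domains of the chain. Shares with and without a control PQN-85 peak were close: JK06 SMC-3 overlapped 233 of 252 domains with PQN-85 (92.5%) and 48 of 52 without it (92.3%).

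After SMC-3 depletion most domains had no SMC-3 peak. The JK05 SMC-3 list held 361 peaks and overlapped 29 of 304 domains, or 9.54% (6.48 to 13.4). It overlapped 4.15% of all control SMC-3 peaks and 20.5% of the 811 high-scoring narrower peaks. It covered 7.78% of domain bases, 3.05% of those of narrower peaks and 12.7% of those of high-scoring narrower peaks. The domains overlapped included 9 of 48 on X (18.8%, interval 8.95 to 32.6) and 19 of 255 on the autosomes (7.45%, 4.55 to 11.4). Of narrower peaks, 4.79% on X and 3.65% on the autosomes were overlapped. Overlap went with width: 14 of 47 domains of 5000 bp or more were overlapped, 8 of 92 from 3000 to 5000 bp and 7 of 165 below that. By bases the shares covered were 15.7%, 5.13% and 2.28%. The median control scores of the bands were 863, 644 and 449, so width and score rose together and were not separated. Wide regions are more easily touched. The widest band also held the mitochondrial domain, the end of chromosome I and the broader anc-1 domain, each 100% covered.

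These 29 domains were of more than one kind. At 18 of them the JK05 peaks covered less than 50% of the width, with a median of 19.9%. Of the highest-scoring, the domain at ftt-2, a 14-3-3 protein gene, had a control score of 1853 and was 16.9% covered. The sma-9 domain was 10.1% covered, a gene-free domain on IV (chrIV:14029066-14037395) 16.9%, the domain at egl-30, the Gq alpha subunit gene, 18.8%, and the domain at srh-2 and icl-1 16.8%. The lin-14 domain was 2.30% covered. The domain at the small heat shock genes hsp-16.1, hsp-16.11, hsp-16.48 and hsp-16.49 was 12.7% covered, and the one at F44E5.4 and F44E5.5 26.9%. This last group was picked out after its values were seen.

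At the other 11 domains, or 3.62% of all domains, JK05 peaks covered at least 50% of the width. The share was 3.498% over all control SMC-3 peaks, 3.49% in narrower peaks and 18.5% in high-scoring narrower ones. The domains thus exceeded all control peaks in overlap by 1 bp, but were close to them at 50% of the width. Of the 11 domains, 6 had an authors' fold enrichment under 2 in the control. They were the mitochondrial domain, the end of chromosome I, the pair at chrV:17120008-17126551 and chrV:17128229-17132100, chrX:292059-295250 and ZC247.1 on I. The JK05 peaks at them were as wide as the domains or wider, with authors' folds of 1.59 on M, 1.598 at the end of I, 1.96 and 1.93 on V, 1.58 on X and 3.25 at ZC247.1. Both anc-1 domains were covered, 100% and 99.9%, by 1 JK05 peak of 16983 bp with an authors' fold of 4.59, and neither had a PQN-85 peak in CA1200 or JK05. The fold is each list's own and is not comparable between lists. Without the mitochondrial and the other low-fold domains, 23 of 296 domains, or 7.77%, were overlapped in JK05.

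**Figure D3:**
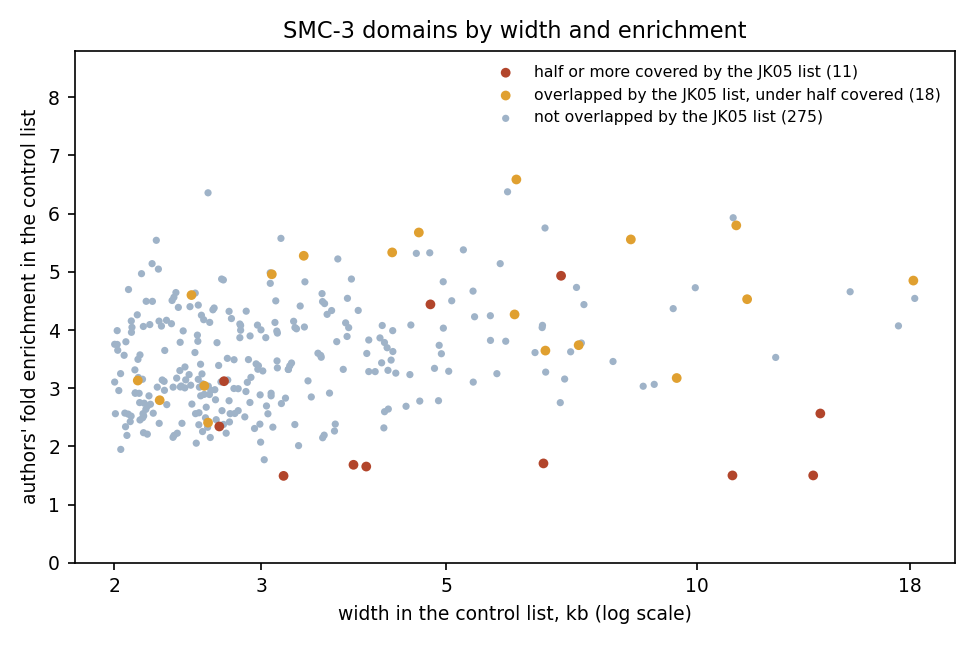
Each point is 1 of the 304 domains, by its width in kb (horizontal, log scale) and the authors' fold enrichment in the control list (vertical). Colours give overlap with the JK05 SMC-3 list: 11 domains with at least 50% of the width covered, 18 with less, 275 without overlap. Of the 8 points with a fold under 2, 6 are in the first class.

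In strain HW04, SMC-3 covered far more of the domains in one condition than in the other, and the labels and the peak names disagree on which it was. In the lists labelled auxin, SMC-3 covered 87.2% and 77.2% of domain bases in replicates 1 and 2, against 47.3% and 34.1% in those labelled no auxin. The conditions did not overlap. By the labels the mean was 82.2 ± 7.07% with auxin and 40.7 ± 9.35% without (SD, n = 2 libraries each), a difference of 41.5 percentage points with an exact two-sided permutation p of 0.333, the smallest that 2 against 2 libraries allow. By the conditions in the peak names the difference is −41.5 points. Narrower peaks moved alike, with 71.5% and 71.3% covered under the auxin label and 37.5% and 34.6% under the no auxin label.

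The number of domains touched by HW04 SMC-3 varied less. The lists overlapped 300 and 291 domains under the auxin label, against 281 and 269 under the no auxin label, where 81.8% and 84.3% against 54.5% and 51.7% of all control SMC-3 peaks were overlapped. All 4 lists overlapped 255 domains, a joint count not available over all control SMC-3 peaks. A SMC-3 peak of 2000 bp or more stood at 226 and 180 domains under the auxin label, against 59 and 24 under the no auxin label. Over all control SMC-3 peaks the shares with such a peak were 9.43% and 6.52% under the auxin label, against 1.097% and 0.382% under the no auxin label. The lists held 405 and 298 broad peaks in all under the auxin label, against 72 and 37 under the no auxin label.

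PQN-85, whose labels and peak names match, was called at fewer domains with auxin in HW04. With auxin, 75% and 44.1% of domains had a PQN-85 peak in replicates 1 and 2, against 90.1% and 90.8% without auxin. All control SMC-3 peaks had one in 38.1% and 11.3% with auxin, against 64.1% and 82.8% without. The mean share of domains was 59.5 ± 21.9% with auxin and 90.5 ± 0.465% without (SD, n = 2 libraries each), a difference of −30.9 points with the smallest exact permutation p possible, 0.333. The difference was −15.1 points in replicate 1 and −46.7 in replicate 2, whose auxin list held only 1296 peaks. PQN-85 covered 25.7% and 8.28% of domain bases with auxin, against 54.2% and 57.6% without.

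Among the 269 domains with PQN-85 in both libraries without auxin, 133 also had it in both libraries with auxin and 42 in neither. The median width of the 133 was 3282 bp and that of the 42 was 2669 bp, though wider regions are more easily touched. Matching joint counts over all control SMC-3 peaks are not available here. On X, 39 and 25 of 48 domains had a PQN-85 peak with auxin, against 48 and 48 without it. Narrower X peaks had one in 40.1% and 12.8% with auxin, against 64.8% and 85.1% without. Broad PQN-85 peaks stood at 12 and 0 domains with auxin, against 79 and 79 without. Over all control SMC-3 peaks the shares were 0.286% and 0% with auxin, against 2.11% and 2.099% without, and the lists held 35 and 10 broad peaks with auxin, against 143 and 125 without.

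H4K20me1, the histone mark that dosage compensation places along the X chromosomes of hermaphrodites, was measured in the same strain. On X it covered nearly all domain sequence: 87.8% and 90.3% of bases with auxin, against 89.997% and 88.4% without. Of the 48 X domains, 47 were overlapped in all 4 lists, and the exception was the low-fold domain at chrX:292059-295250. The means on X were 89.0 ± 1.76% with auxin and 89.2 ± 1.13% without (SD, n = 2 libraries each), and the difference of −0.183 points had an exact permutation p of 1. Narrower X peaks had 80.9% and 81.7% of bases covered with auxin, against 85.6% and 81.9% without.

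On the autosomes H4K20me1 reached domains more than narrower peaks. It covered 19.5% and 24.3% of autosomal domain bases with auxin, against 18.6% and 18.6% without, and 5.34% and 7.06% of the bases of narrower autosomal peaks with auxin, against 5.23% and 5.62% without. In overlaps, 136 and 161 of 255 autosomal domains (53.3% and 63.1%) had a peak of the mark with auxin, against 131 and 134 (51.4% and 52.5%) without. Narrower autosomal peaks were overlapped in 8.47% and 12.2% with auxin, against 8.41% and 9.63% without. Over all control SMC-3 peaks, X included, the overlapped shares were 27.6% and 30.9% with auxin, against 27.5% and 28.5% without. The domain share exceeded the narrower share in each of the 4 libraries; that difference has no test here. Between auxin and no auxin the autosomal covered share differed by 3.31 points, by 0.895 points in replicate 1 and 5.73 in replicate 2. The exact permutation p was 0.333, the smallest that 2 against 2 libraries allow, so the test could not decide.

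**Figure D4:**
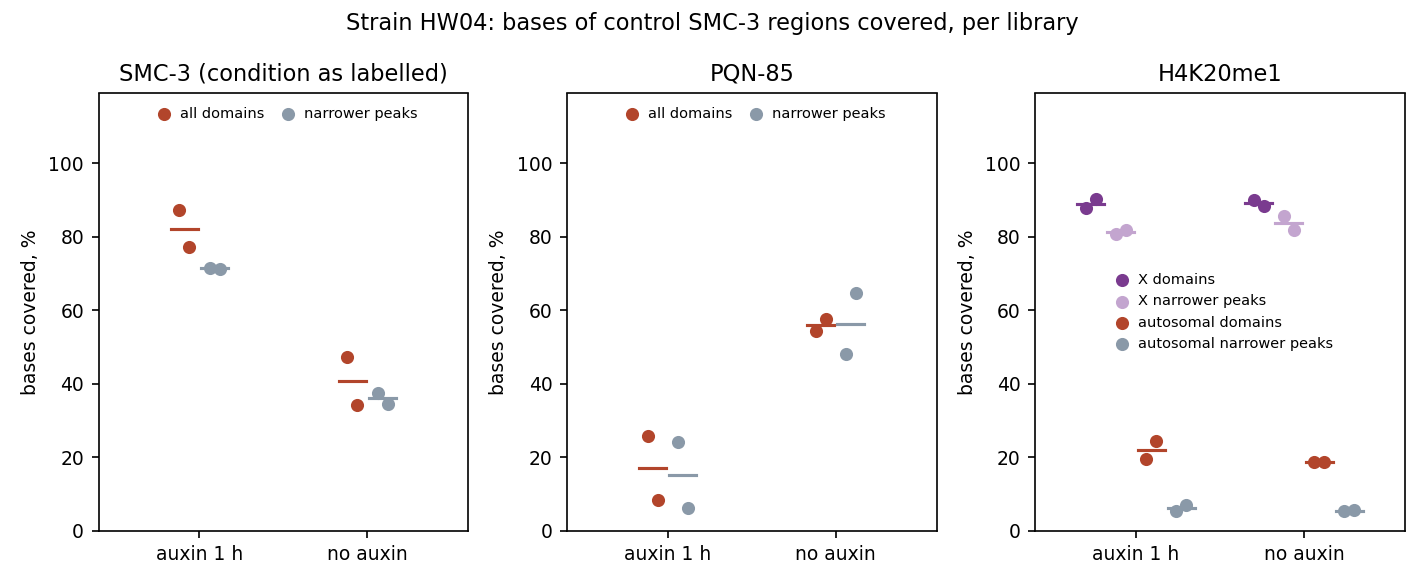
Each point is 1 HW04 library, with the share of bases of control SMC-3 regions covered (vertical, %), for 1 h auxin and no auxin as labelled; short lines are means of 2 libraries. SMC-3 points under the auxin label lie at 77.2 and 87.2% for domains, PQN-85 points with auxin at 8.28 and 25.7%. H4K20me1 is split into X and autosomes.

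The mark was uneven across autosomal domains. It overlapped 108 of 255 in all 4 libraries and 83 in none, and it covered at least 50% of 22 domains in every library. The same counts over all autosomal control SMC-3 peaks are not available here. Those 22 included all 4 domains of kin-1, both of mca-3, a plasma membrane calcium pump gene, and 2 domains of the chain at mdt-15. They also included the domains at mnk-1, rho-1, atf-7, hsp-1 and cpt-1, which encode 2 signalling proteins, a stress transcription factor, the constitutive HSP70 and a carnitine palmitoyltransferase. JK06 SMC-3 overlapped 16 of the 22 (72.7%), 72 of the 83 without the mark (86.7%) and 232 of all 255 (91.0%). It covered 42.7% of the bases of the 22 and 55.2% of those of the 83. The 6 of the 22 not overlapped by the combined JK06 list included all 4 kin-1 domains, which had control scores of 137 to 241. The shares thus rest in part on 1 gene and were not tested.

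The domains spanned 327 genes of the 18607 in the RNA tables, of which 317 are protein coding. A domain spanned 1 gene in 144 cases and 2 or more in 104, with a maximum of 4, and 41 genes were met by 2 or more domains. Spanned genes were long, with a median annotated span of 3595 bp against 2131 bp over all genes, and long genes are more easily overlapped. They were also strongly expressed. The median mean normalized count over both strains was 1495 in the authors' deposited table of SMC-3 depletion, against 143 over all genes. Per kb of gene span it was 273 against 56.6. By that measure 99 of 326 spanned genes, or 30.4%, were in the upper 10% of genes, and 261, or 80.1%, in the upper 50%. In the authors' deposited table of WAPL-1 depletion, 97 of 323 were in the upper 10%.

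Several families, taken by the start of the symbol, were counted among the 327 genes. Heat shock genes numbered 6 of 24 (hsp-1, hsp-4, hsp-16.1, hsp-16.11, hsp-16.48 and hsp-16.49), which is 1.83% of spanned genes against 0.129% of all genes. The hsp-16 genes lie together and share 1 domain. Nuclear hormone receptors numbered 6 of 260 (nhr-19, nhr-21, nhr-40, nhr-46, nhr-88 and nhr-274), or 1.83% against 1.40%. The list of collagen and cuticle symbols (col, dpy, sqt, rol, bli) had 2 of 192, the collagen gene col-153 and dpy-19, a C-mannosyltransferase gene and no collagen. Histones numbered 2 of 49 (his-11 and his-12). Ribosomal proteins (rpl-27), helix-loop-helix factors (hlh-30), lectins (clec-221) and insulin-like genes (ins-36) had 1 member each. Of 63 homeobox ceh genes none was spanned. No member of these families was called in either RNA table.

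Other spanned genes, picked here by their known roles after the list was seen, give an idea of what the domains cover. They include transcription factors of stress and growth (daf-16, hif-1, atf-7, zip-2, atfs-1, mxl-3), the sex determination factor tra-1, G protein subunits (egl-30, goa-1, gpb-1) and the 14-3-3 genes ftt-2 and par-5. They also include enzymes of gluconeogenesis and the glyoxylate route (pck-1, pck-2, fbp-1, pyc-1, icl-1) and the autophagy genes lgg-1 and lgg-2. In the authors' deposited table of SMC-3 depletion, icl-1 had the highest mean normalized count of all spanned genes, 73976, and pck-2 had 36972. Among the genes just listed that met 1 domain, the overlap ranged from 406 bp for goa-1 to 5026 bp for atf-7.

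RNA values of single libraries were not given, so the authors' fold changes and standard errors stand for the spread. In JK05 the targeted gene smc-3 had a log2 fold change of −0.23 (SE 0.26), and in JK06 wapl-1 had one of 0.22 (SE 0.41), both from the authors' deposited tables. Degradation acts on the protein, so RNA of the targets does not check the labels. The other cohesin genes him-1, scc-1, scc-2 (PQN-85) and mau-2 lay between −0.06 and 0.24 in these deposited tables, with none called.

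In RNA after 4 h of auxin, 3 spanned genes were called in JK05 over CA1200, all lower. Calls over all genes were few and also mostly lower. In the authors' deposited table, 0 of 310 tested spanned genes were higher and 3 lower at an adjusted p under 0.05, where 0.222% of all 15316 tested genes were higher, 0.464% lower and 0.686% called in all. The authors' deposited table gives ctsa-1.2, a cathepsin A family gene, a log2 fold change of −1.49 (SE 0.26, adjusted p = 1.59e-05 by the authors' DESeq2 fit). It gives Y39E4B.6 one of −1.24 (SE 0.28, adjusted p = 0.00357) and Y43F8B.2 one of −1.72 (SE 0.40, adjusted p = 0.00600), again from the authors' deposited table. All 3 overlapped domains with a PQN-85 peak in the control and with no JK05 SMC-3 peak. The overlap was partial for Y39E4B.6, at 2354 of 4273 bp. For Y43F8B.2 it was 3414 of 13186 bp, with the gene start outside the domain. The Y39E4B.6 domain, at chrIII:13069305-13073012, had the fourth highest score of all, 1824, and its summit was 71 bp upstream of the gene start. The ctsa-1.2 domain was chrII:11741534-11744780 and the Y43F8B.2 domain chrV:19519124-19523308, with scores of 456 and 533.

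Without adjustment, 23 of 326 spanned genes (7.06%) had p under 0.05 in the authors' deposited table of SMC-3 depletion, 2 higher and 21 lower, where 5.83% of all 18128 genes did, 2.17% higher and 3.66% lower. The 3 lowest were hsp-16.1 at −2.44 (SE 0.84, adjusted p = 0.215), F44E5.5 at −1.94 (SE 0.55, adjusted p = 0.0523) and F44E5.4 at −1.93 (SE 0.65, adjusted p = 0.195), by the authors' DESeq2 fit in their deposited table. F44E5.4 and F44E5.5 are near-identical, as are hsp-16.1 and hsp-16.11, so their counts are uncertain. The 2 higher ones were col-153 at 1.01 (SE 0.34) and EGAP1.1 at 1.91 (SE 0.57) in the authors' deposited table. The median log2 fold change of spanned genes was −0.11 and that of all genes −0.01. For genes with a mean normalized count of 1000 or more it was −0.14 over 186 spanned genes and −0.05 over all 3230. Below 0 were 212 of 326 spanned genes (65.0%) and 50.7% of all genes in the authors' deposited table; the difference was not tested.

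WAPL-1 depletion called no spanned gene. In the authors' deposited table of WAPL-1 depletion, 0 of 323 spanned genes passed the adjusted threshold by DESeq2, as did 0% of all 18308 genes, and 2 had an unadjusted p under 0.05, where 0.399% of all genes did, 0.0218% higher and 0.377% lower. Those were col-153, at −1.37 (SE 0.57), and EGAP1.1, at 1.88 (SE 0.75), in the authors' deposited table. The median log2 fold change of spanned genes was −0.06 and that of all genes 0.05. Here 189 of 323 spanned genes (58.5%) and 44.2% of all genes were below 0, a difference that was not tested either. The median SE of spanned genes was 0.50 here and 0.31 in the table of SMC-3 depletion. Both depletions were set against the same CA1200 libraries, so their values are not independent.

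**Figure D5:**
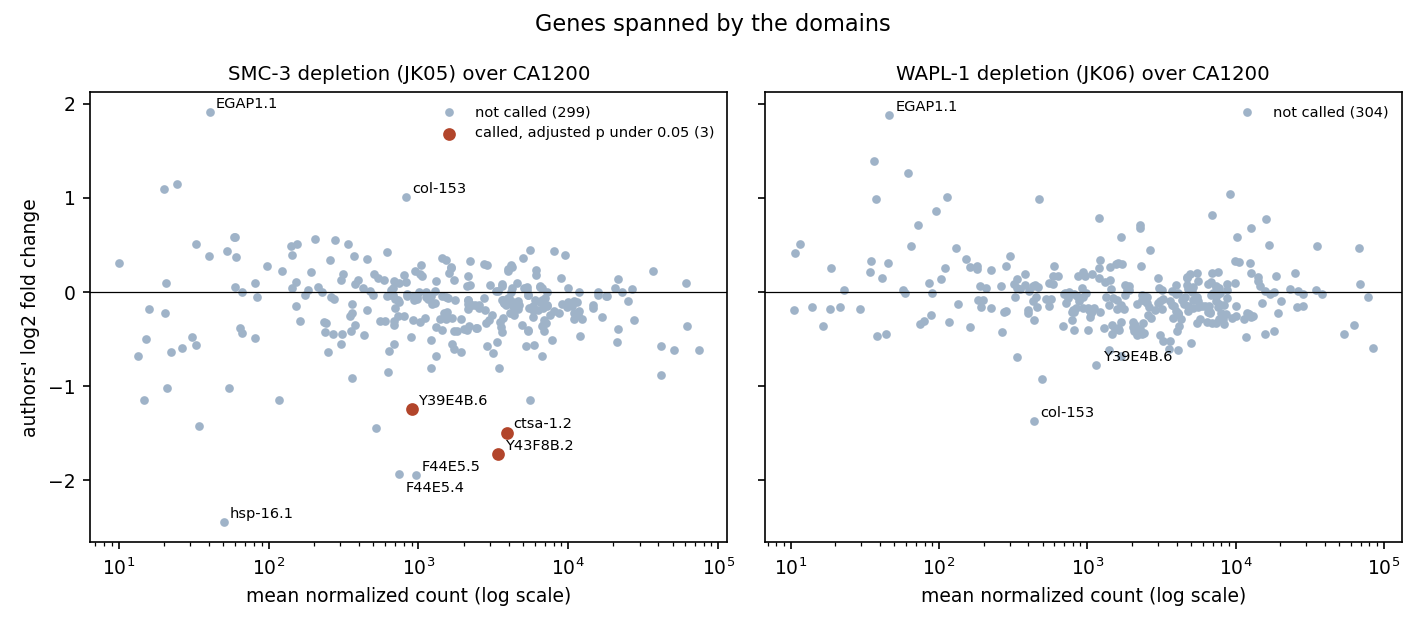
The authors' log2 fold change (vertical) against the mean normalized count (horizontal, log scale) for spanned genes with a mean count of at least 10, for SMC-3 depletion (left) and WAPL-1 depletion (right) over CA1200. The 3 called genes, ctsa-1.2, Y39E4B.6 and Y43F8B.2, are all below 0 on the left, and no gene is called on the right.

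The genes of the 5 broadest domains were not called. In the authors' deposited table of SMC-3 depletion, log2 fold changes were −0.42 (SE 0.30) for W06H8.6, −0.17 (SE 0.26) for lin-14, 0.08 (SE 0.25) for ppfr-1, −0.48 (SE 0.27) for Y111B2A.12 and 0.15 (SE 0.26) for anc-1. In the authors' deposited table of WAPL-1 depletion the same genes had −0.28 (SE 0.51), −0.19 (SE 0.45), −0.04 (SE 0.39), −0.17 (SE 0.43) and 0.10 (SE 0.40). For kin-1, whose domains the combined JK06 SMC-3 list did not overlap, the deposited WAPL-1 table gives −0.09 (SE 0.39). For mdt-15 it gives −0.22 (SE 0.62). The JK06 list overlapped 3 of the 5 domains of the mdt-15 chain. It covered 61.0% of the one with mdt-15 as its gene of largest overlap. None of these 7 genes was called in either table. With 2 libraries per strain, changes of several standard errors also went uncalled, as at F44E5.5.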

How the data were processed

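ChIP-seq peak lists and RNA comparison tables were used as deposited. The submitters' processing notes name Bowtie2 2.4.2, MACS2 2.1.1 and MACS3 for ChIP-seq and HISAT2 2.2.1, HTSeq 0.13.5 and DESeq2 1.30.0 for RNA-seq. In the deposited lists the authors give each peak a score, a fold enrichment (ratio over input) at the summit, and −log10 p and q values. For RNA, the deposited values per the file headers are the authors' log2 fold change of each depletion over CA1200, its standard error, a Wald statistic (score), the p-value and adjusted p-value, and the mean normalized count (a signal over both strains). Read totals are not in the files, so depth is unknown. Replicates are labelled as such, with no word on separate cultures, so p-values measure only the spread between these libraries, which may be technical.

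Domains were taken by width from the combined control list. Another list counted as present at 1 bp of overlap, and exact Clopper-Pearson 95% intervals cover counting error only. HW04 lists were compared by two-sided exact permutation tests over libraries. Functions for overlap and tests were tested on simulated data. Python 3.11.15 with SciPy 1.17.1 was used. The combined JK06 lists, filed under samples of other names, were identified by the libraries that their peak names state. The labels state build ce10 for 38 of 83 samples and none for the genes. Gene ends in the tables differed from the RefSeq WBcel235 annotation by 12 to 101 bp (median of the last 300 genes of each chromosome), and summits near chromosome ends lay within 23 bp of the control summits (median), so genes and peaks were treated as sharing ce10. RefSeq gave names for 18230 of 18607 genes.

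Named genes were those of largest overlap with the 15 broadest domains, with 5 domains each of the highest score in JK05, without JK06, without PQN-85 and with most PQN-85 peaks, and spanned genes that were called, or past an unadjusted p of 0.05 with one of the 3 largest changes each way, and cohesin genes as checks. Genes named outside this rule are described by role or position and were chosen after their values were seen. Domains, lists and tests were chosen with earlier results of these data known.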

Additional observations from a re-analysis of the deposited data

How the results depend on the processing

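A width minimum of 1500 bp gave 555 domains and one of 3000 bp gave 139. With these minimums PQN-85 was at 77.3% and 87.1% of domains, JK05 SMC-3 at 6.13% and 15.8%, and JK06 SMC-3 at 86.1% with 1500 bp. Keeping only peaks in the upper 50% of each list by score gave 69.1% with control PQN-85, 5.59% with JK05 SMC-3, 58.9% with JK06 SMC-3, 70.4% with JK05 PQN-85 and 73.7% with JK06 PQN-85. Requiring 50% of the domain covered gave 3.62% in JK05 and 55.9% in JK06. Over all control SMC-3 peaks the same requirement gave 3.498% in JK05 and 63.8% in JK06. The JK06 replicate 3 list gave 96.1%, and the averaged JK06 PQN-85 list 95.4%. How high a share is thus depends on the threshold, while the order of JK05 below JK06 for SMC-3 held in each of these settings. Chosen after seeing the data, leaving out low-fold and mitochondrial domains gave 7.77% in JK05 and 92.6% in JK06, and joining neighbours gave 227 domains.

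In HW04 the SMC-3 difference was −41.5 points with the conditions of the peak names, and 39.9 to 43.1 with a replicate left out. The PQN-85 difference was −46.7 to −15.1, that of H4K20me1 0.384 to 5.04 over all domains, −2.23 to 1.86 on X and 0.895 to 5.73 on autosomes with a replicate left out. A replicate block gave an exact sign-flip p of 0.5 for the SMC-3 difference of 41.5, the PQN-85 difference of −30.9 and the H4K20me1 differences of 2.71 over all domains and 3.31 on autosomes, and 1 for −0.183 on X, where 0.5 is the smallest possible. Libraries of the same replicate number deviated together over domains with a correlation of 0.291 for SMC-3, 0.0425 for PQN-85 and 0.175 for H4K20me1, and the labels do not say what a number shares. Counting genes by a start inside a domain gave 1 called gene in the SMC-3 table, Y39E4B.6, and an unadjusted p of 0.05 gave 2 in the WAPL-1 table. The cause of these differences was not tested.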
